A study of Homo sapiens with 6 samples.

Results

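Expression of aminoacyl-tRNA synthetase genes was compared in BT549, an established line of human breast cancer cells, between 3 libraries labelled control and 3 labelled ENL. ENL is given as a treatment with no further name, dose, duration or vehicle. Nothing in the labels ties the replicates to separate cultures, so p-values cover only the spread between these libraries, which may be technical. The genes were chosen by symbol from the deposited gene table: 35 synthetase genes, 19 for cytosolic and 16 for mitochondrial enzymes, of 19923 genes in all. All 35 had a row and passed the filter on low counts. Other genes of the family were not analysed here.

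Each synthetase joins 1 amino acid to its tRNAs, the step that fixes the meaning of the genetic code. Human cells keep separate sets of these enzymes in the cytosol and in mitochondria, and nuclear genes encode both. Most amino acids have a gene for each compartment, named with a final 1 or 2. Glycyl- and lysyl-tRNA synthetase serve both compartments from a single gene each, GARS1 and KARS1. Several cytosolic enzymes sit together in the multisynthetase complex, and many cytosolic synthetase genes are known targets of ATF4, the transcription factor of the amino acid response. Mitochondrial synthetases charge the tRNAs used to translate the few proteins encoded by mitochondrial DNA.

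Library totals lay between 74457932 and 85310759 estimated counts, in a table where 1 fragment appeared to be worth about 4 units. On the component with 14.3% of the variance, ENL library 3 had a score of 55.8 against -22 and -26.3 for ENL libraries 1 and 2, so values without it are given where they matter. The mesenchymal marker VIM had a mean of 2744 CPM (counts scaled to library size, on the TMM scale) in control and 5949 CPM in ENL. ZEB1 stood at 90, 49.5 and 93.7 CPM in control and 140, 136 and 62.5 CPM in ENL libraries 1, 2 and 3, and its groups overlapped. The source is labelled as mammary epithelium, but the epithelial genes CDH1 and EPCAM were below 0.4 CPM in every library, ESR1 below 1 CPM, and PGR at 0 in all 6, whereas ERBB2 averaged 78.4 CPM in control. Leukocyte, endothelial and hepatocyte markers (PTPRC, CD3E, PECAM1, CDH5 and ALB) were at or below 1.2 CPM throughout. A gene was called when its Benjamini-Hochberg adjusted p in edgeR's quasi-likelihood test was below 0.05: of 14086 genes tested 38.4% were called, 20% as higher in ENL and 18.4% as lower. These shares depended on scaling: 52.2% of the called genes were higher with TMM, 42.9% with upper-quartile scaling and 31.1% with library totals alone, and the log2 fold change of the median gene was -0.02, -0.11 and -0.23. All fold changes below are relative to the TMM scale.

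Among the 19 cytosolic enzymes 4 rose (SARS1, AARS1, YARS1 and GARS1), 2 fell (HARS1 and VARS1) and 13 did not pass the threshold, so that 21.1% were higher and 10.5% lower, beside 20% and 18.4% of all tested genes. Among the 16 mitochondrial enzymes 1 rose (WARS2), 7 fell (PARS2, MARS2, CARS2, AARS2, NARS2, TARS2 and IARS2) and 8 did not pass, so that 6.25% were higher and 43.8% lower. In bulk RNA a lower level in every cell and a change in fewer cells cannot be told apart. Without ENL library 3, 5 cytosolic enzymes were higher and 1 lower, and 1 mitochondrial enzyme was higher and 7 lower, where 21.9% of all tested genes were higher and 19.9% lower. The median log2 fold change was 0.05 for cytosolic and -0.32 for mitochondrial enzymes, beside -0.02 over all genes tested. Fitted values were below 0 for 15 of the 16 mitochondrial and 8 of the 19 cytosolic genes. The sign of the cytosolic median depended on scaling, since it was -0.03 with upper-quartile scaling and -0.15 with library totals, while the mitochondrial median was -0.41 and -0.53. Without control library 3, 4 mitochondrial and 0 cytosolic enzymes were called lower. Without control library 1 or 2 or ENL library 1 or 3 the cytosolic count was 1, and DESeq2's Wald test called 1 cytosolic enzyme lower. Calls over the whole table changed too, from 2585 of 14086 genes lower with all libraries to 1743 of 14338 without control library 3. They were 1807 of 14320 and 1840 of 14323 without control library 1 or 2, 2034 of 14429 without ENL library 1, and 2877 of 15805 in DESeq2's Wald test. These counts describe genes picked by name, and no test was made of the difference between the lists.

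**Figure D1:**
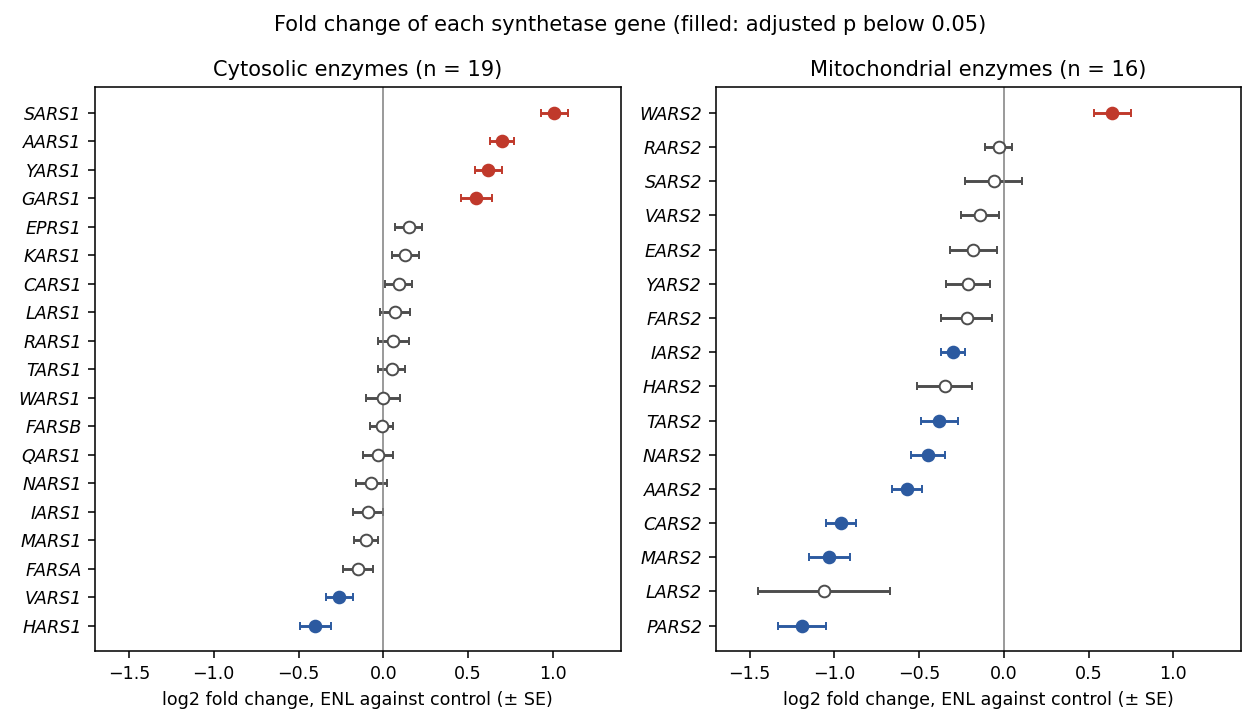
Log2 fold change of ENL against control with its standard error for each of the 19 cytosolic (left) and 16 mitochondrial (right) synthetase genes, 3 libraries per group; filled points passed an adjusted p of 0.05. The cytosolic genes lie on both sides of 0, from -0.40 to 1.01, and all mitochondrial genes but WARS2 lie below 0, from -1.19 to -0.03.

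Summed over each compartment and scaled by transcript length (CPM per kb of the longest annotated transcript), the cytosolic enzymes stood at 1331, 1311 and 1357 in control libraries 1, 2 and 3 and at 1672, 1686 and 1646 in ENL libraries 1, 2 and 3. Mitochondrial enzymes stood at 197.6, 193.1 and 192.5 in control and at 154, 153.6 and 148.9 in ENL. The sums of both compartments differed between the groups with no overlap, upward for the cytosol and downward for mitochondria. In these sums GARS1 and KARS1, which serve both compartments, were counted as cytosolic only. GARS1 stood at 113.2 CPM per kb in control and 165.6 in ENL, and KARS1 at 69.4 and 76.1. The fall of the mitochondrial sum and the ratio that follows depend on this assignment. The ratio of the cytosolic to the mitochondrial sum, which does not depend on library scaling, was 6.86 ± 0.166 (SD, n = 3) in control and 11.0 ± 0.0969 in ENL. The 4 cytosolic genes called higher, a set picked by that call, made up 36.7% ± 0.590 of that sum in control and 50.5% ± 0.645 in ENL. The other 15 cytosolic genes, which include HARS1 and VARS1, summed to 844 ± 12.7 CPM per kb in control and 826 ± 3.73 in ENL, and their groups overlapped.

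Seryl-tRNA synthetase, SARS1, which also loads serine onto the tRNA that becomes selenocysteinyl-tRNA, had the highest fold change of the 35 and was the most abundant per length in both groups. Its level was 350, 365 and 369 CPM in control libraries 1, 2 and 3 and 730, 773 and 678 CPM in ENL libraries 1, 2 and 3. Every ENL library lay above every control library. SARS1 (chromosome 1, 109213918 to 109238169, plus strand, GRCh38) rose by 1.01 ± 0.08 on the log2 scale (SE, n = 3 per group; edgeR adjusted p = 0.00021). It took 14.4% ± 0.410 of the summed cytosolic CPM per kb in control and 23.2% ± 1.23 in ENL. Its mitochondrial partner SARS2 had a log2 fold change of -0.06 ± 0.17 (edgeR adjusted p = 0.786).

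Alanyl-tRNA synthetase, AARS1 (chromosome 16, 70252295 to 70289543, minus strand), proofreads the alanine it attaches to its tRNA. It was at 276.5, 276.5 and 299.5 CPM in the control libraries and at 439, 471 and 471 CPM in the ENL libraries. The groups were far apart, and AARS1 rose by 0.70 ± 0.07 (edgeR adjusted p = 0.000708). Tyrosyl-tRNA synthetase, YARS1 (chromosome 1, 32775237 to 32818153, minus strand), was at 315, 343 and 338 CPM in control and 529, 470 and 529 CPM in ENL, and rose by 0.62 ± 0.08 (edgeR adjusted p = 0.00162). YARS1 shares 396 exon bases with S100PBP on the opposite strand, and their sum rose by 0.61. The gene for the dual-compartment glycyl enzyme, GARS1 (chromosome 7, 30594681 to 30634033, plus strand), was at 310, 271 and 313 CPM in control and 455, 435 and 418 CPM in ENL. It rose by 0.55 ± 0.09 (edgeR adjusted p = 0.00302), and again no library of 1 group reached the range of the other. SARS1, AARS1, YARS1 and GARS1 kept their calls in all 17 alternative settings, with a lowest log2 fold change of 0.34, that of GARS1 under library totals.

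**Figure D2:**
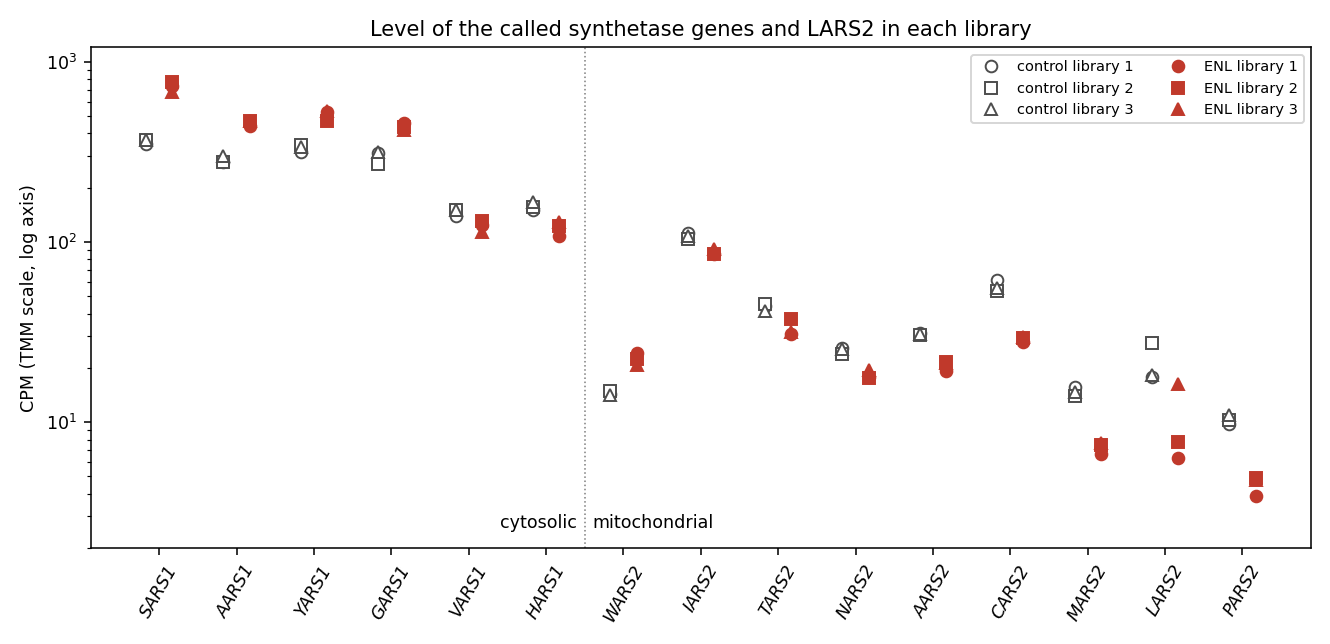
Level of the 14 called synthetase genes and LARS2 in each library, in CPM on a log axis, with control libraries as open and ENL libraries as filled symbols and 1 shape per library number. The groups do not overlap for any of the genes shown, and the ENL library 3 value of LARS2 lies close to the control libraries.

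Because several of these genes are known ATF4 targets, their promoters were searched for TGATGNAA, the core of the element at which ATF4 binds with C/EBP-family partners. RefSeq promoter windows (GRCh38.p14, 250 bases before to 50 bases after a start site) were matched for 30 of the 35 genes, and both strands were searched. The letters were present in 8 of these 30 genes, 7 of 16 cytosolic (AARS1, CARS1, GARS1, IARS1, MARS1, NARS1 and TARS1) and 1 of 14 mitochondrial (YARS2). Over all genes of the table with a window they were present in 3.64% (549 of 15085), and over all windows in 2.71%. Of the 8 genes with a match 2 rose and 6 did not pass the threshold, where 20% of all tested genes rose and 18.4% fell. SARS1 had no match in its windows and YARS1 had no window. The sites are shown to compare their cores and flanks, each read on the strand that carries TGATGNAA, with the motif in capitals:
AARS1 (chr16:70289678-70289701, plus strand): aacttggcTGATGCAActgcgaga
CARS1 (chr11:3057410-3057433, plus strand): ctagaatcTGATGCAAccgccgcc
GARS1 (chr7:30594837-30594860, minus strand): tcggagcaTGATGAAAtcgccgcg
IARS1 (chr9:92293695-92293718, plus strand): cacggaggTGATGCAAcgcgctga
MARS1 (chr12:57488056-57488079, minus strand): tccctcgcTGATGCAAccggaacc
NARS1 (chr18:57621807-57621830, minus strand): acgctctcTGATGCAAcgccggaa
TARS1 (chr5:33440959-33440982, minus strand): ggaccagcTGATGCAAtcgaaagg
YARS2 (chr12:32756079-32756102, minus strand): cacactgcTGATGGAAaaattaag
Of the 8 cores 6 read TGATGCAA, while GARS1 has TGATGAAA and YARS2 TGATGGAA. A match is a description of the letters and does not show that a factor binds there.

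The promoter windows of the 2 called genes with a match are shown whole, with the motif in capitals as it lies on the strand of the gene. Read along the gene the first capital lies at -187 from the start site in AARS1 and at -33 in GARS1, and in both TGATGNAA is on the opposite strand. The windows are chr16:70289457-70289756 (minus strand) and chr7:30594628-30594927 (plus strand).
AARS1: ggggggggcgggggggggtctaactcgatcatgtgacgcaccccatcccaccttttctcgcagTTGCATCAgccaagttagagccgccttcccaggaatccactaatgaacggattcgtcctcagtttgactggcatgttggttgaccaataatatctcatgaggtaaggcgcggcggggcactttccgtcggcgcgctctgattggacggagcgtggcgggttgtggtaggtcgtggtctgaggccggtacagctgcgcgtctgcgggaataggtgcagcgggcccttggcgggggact
GARS1: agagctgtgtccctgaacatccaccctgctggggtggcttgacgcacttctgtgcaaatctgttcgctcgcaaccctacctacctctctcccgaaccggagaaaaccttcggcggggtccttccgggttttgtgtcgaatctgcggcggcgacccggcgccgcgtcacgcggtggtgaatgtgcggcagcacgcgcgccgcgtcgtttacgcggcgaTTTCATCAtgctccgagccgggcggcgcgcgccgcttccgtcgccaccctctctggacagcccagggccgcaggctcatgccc
GARS1 had another window, with an earlier start and no match.

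Histidyl- and valyl-tRNA synthetase were the cytosolic enzymes called lower. HARS1 (chromosome 5, 140673904 to 140691862, minus strand) was at 151, 156 and 166 CPM in control and 108, 122 and 128 CPM in ENL, with a log2 fold change of -0.40 ± 0.09 (edgeR adjusted p = 0.013). All ENL libraries lay below all control libraries, but the call was lost without control library 3 (adjusted p = 0.0548). HARS1 shares 437 exon bases with HARS2 and 221 with WDR55 on the opposite strand, and the sum of the 3 genes stood at -0.34 on the log2 scale (adjusted p = 0.00729). VARS1 (chromosome 6, 31777518 to 31795953, minus strand), whose product associates with the elongation factor that delivers charged tRNA, was at 139, 151 and 150 CPM in control and 124, 130 and 114 CPM in ENL. Its log2 fold change was -0.26 ± 0.08 (edgeR adjusted p = 0.0407), a call close to the threshold. Without control libraries 1, 2 or 3 or ENL libraries 1 or 3 the adjusted p was 0.0638, 0.132, 0.13, 0.0953 and 0.0704, and it was 0.0608 in DESeq2's Wald test.

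The 7 enzymes of the multisynthetase complex measured here were EPRS1, IARS1, LARS1, MARS1, QARS1, RARS1 and KARS1. None was called by edgeR, DESeq2's Wald test or limma-voom, where edgeR called 38.4% of all tested genes. In edgeR 0 of the 7 had an unadjusted p below 0.05, where 6800 of 14086 tested genes had. The log2 fold changes of the 7 ran from -0.10 to 0.15, with a median of 0.06. Under library totals EPRS1, KARS1, LARS1 and RARS1 changed sign, to -0.06, -0.08, -0.14 and -0.15, and MARS1 was called lower at -0.30 (edgeR adjusted p = 0.0241). With the length and GC correction EPRS1 was called higher at 0.21 (edgeR adjusted p = 0.0104). The 12 cytosolic genes outside this list held all 6 cytosolic calls, 33.3% higher and 16.7% lower, beside 20% and 18.4% of all tested genes. EPRS1, the bifunctional enzyme for glutamate and proline, was at 258, 234 and 254 CPM in control and 273, 261 and 293 CPM in ENL, a log2 fold change of 0.15 ± 0.08 (edgeR adjusted p = 0.184). Its ENL values all lay just above its control values. KARS1, which serves both compartments, was at 175, 163 and 166 CPM in control and 189, 192 and 171 CPM in ENL (0.13 ± 0.08, edgeR adjusted p = 0.219). Its groups overlapped, and without ENL library 3 it was called higher at 0.20 (adjusted p = 0.0418). KARS1 shares 176 exon bases with TERF2IP on the opposite strand, and their sum rose by 0.34 (adjusted p = 0.0135).

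MARS1, methionyl-tRNA synthetase, had a log2 fold change of -0.10 ± 0.07 (edgeR adjusted p = 0.337). It shares 355 exon bases with the stress gene DDIT3 on the opposite strand, and DDIT3 rose from 116 ± 25.7 to 539 ± 136 CPM. No source used here says whether counting used strand, so reads in the shared exons cannot be assigned. The sum of MARS1 with DDIT3 and ARHGAP9 had a log2 fold change of 1.22. The scaffold genes of the complex, AIMP1, AIMP2 and EEF1E1, had log2 fold changes of 0.38 ± 0.13, 0.14 ± 0.12 and 0.20 ± 0.10, and none was called by edgeR (adjusted p = 0.0549, 0.393 and 0.176) or limma-voom. AIMP2 shares 532 exon bases with EIF2AK1 on the opposite strand. AIMP1 was called by DESeq2's Wald test (adjusted p = 0.0416), with the replicate number as a block (edgeR adjusted p = 0.0165) and with the length and GC correction (0.0238). It was also called without control library 1 (edgeR adjusted p = 0.0275) and without ENL library 3 (0.048). The sum of AIMP1 with TBCK, on the opposite strand, was called at 0.36 (edgeR adjusted p = 0.0392). EEF1E1 was called without ENL library 3 (0.0263).

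The remaining cytosolic enzymes were not called on the TMM scale. Tryptophanyl-tRNA synthetase, WARS1, a gene known to be induced by interferon, was at 104, 107 and 117 CPM in control and 105, 100 and 122 CPM in ENL, a log2 fold change of 0.00 ± 0.10 (edgeR adjusted p = 0.985). CARS1, TARS1 and NARS1 had values of 0.09 ± 0.08, 0.05 ± 0.08 and -0.07 ± 0.09. Phenylalanyl-tRNA synthetase is built from equal numbers of alpha and beta subunits, encoded by FARSA (-0.15 ± 0.09) and FARSB (-0.01 ± 0.07). FARSA was called lower with the length and GC correction (-0.23, edgeR adjusted p = 0.00815) and under library totals (-0.36, adjusted p = 0.0112). The ratio of FARSA to FARSB in CPM per kb was 2.06 ± 0.210 in control and 1.86 ± 0.142 in ENL, and the groups overlapped.

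Mitochondrial enzymes were less abundant per length than nearly all cytosolic ones. In control the 18 highest of the 35 genes were cytosolic, from SARS1 (192 ± 5.30 CPM per kb) to VARS1 (34.0 ± 1.54). The next 3, IARS2 (30.4 ± 1.05), CARS2 (30.1 ± 2.16) and RARS2 (29.6 ± 1.11), were mitochondrial, lay within their spread of one another and were followed by cytosolic CARS1 (27.3 ± 0.342). The lowest were LARS2 (4.46 ± 1.13), PARS2 (4.41 ± 0.261) and EARS2 (4.04 ± 0.278), which also did not differ beyond their spread. In ENL, CARS2 stood at 15.4 ± 0.558 CPM per kb, below CARS1 at 29.1 ± 2.32. WARS2 moved from rank 30 to rank 26 and PARS2 was last, at 1.93 ± 0.234. These ranks were not resolved. In ENL, WARS2 (8.01 ± 0.622) did not differ beyond the spread from FARS2 (8.16 ± 1.26) or YARS2 (7.39 ± 0.564). Nor did PARS2 from LARS2 (2.13 ± 1.13), or in control WARS2 (5.13 ± 0.140) from SARS2 (5.17 ± 0.713).

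**Figure D3:**
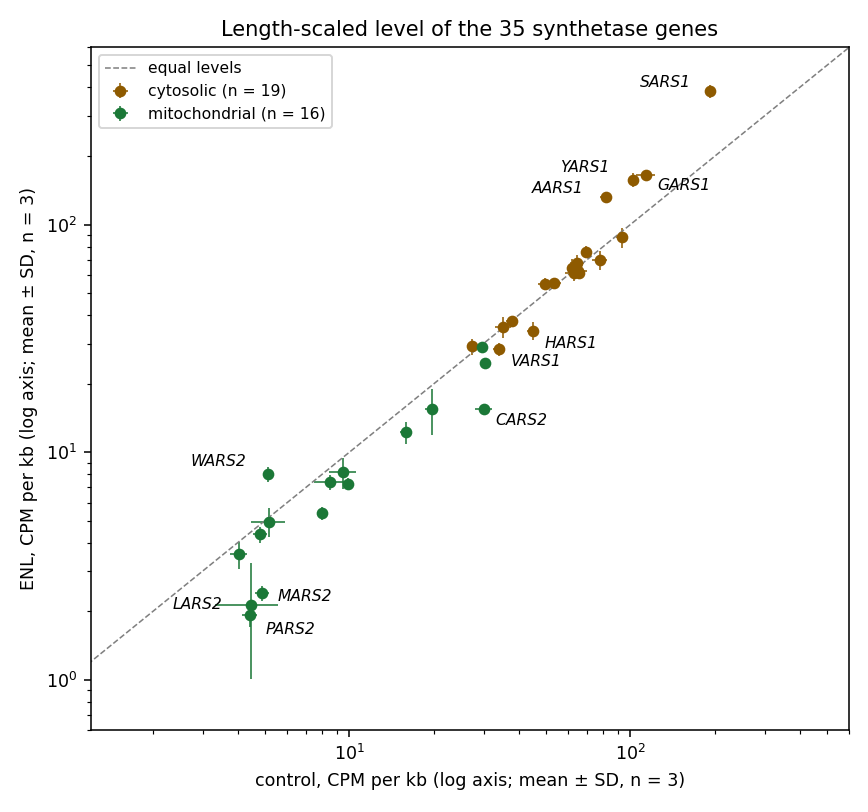
Mean level in ENL against control for the 35 synthetase genes, in CPM per kb of the longest annotated transcript on log axes, with SD bars over 3 libraries and a dashed line of equal levels. SARS1, GARS1, YARS1 and AARS1 lie above the line among the abundant cytosolic genes, and all mitochondrial genes except WARS2 lie on or below it.

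Among mitochondrial enzymes PARS2, MARS2 and CARS2 had the largest called falls. The prolyl enzyme gene PARS2 (chromosome 1, 54756898 to 54764514, minus strand) was at 9.80, 10.2 and 11.0 CPM in control and 3.91, 4.92 and 4.79 CPM in ENL, a log2 fold change of -1.19 ± 0.14 (edgeR adjusted p = 0.00114). Every ENL value was below every control value. MARS2 (chromosome 2, 197705369 to 197708387, plus strand), a gene annotated with 1 exon that encodes the methionyl enzyme, was at 15.62, 14.02 and 14.68 CPM in control and 6.62, 7.47 and 7.65 CPM in ENL. It fell by 1.03 on the log2 scale (SE 0.12, edgeR adjusted p = 0.00098), with the groups again apart.

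The cysteinyl enzyme gene CARS2 (chromosome 13, 110641412 to 110713603, minus strand) was at 61.1, 53.2 and 55.3 CPM in control and 27.8, 29.4 and 29.7 CPM in ENL. It fell by 0.96 (SE 0.09, edgeR adjusted p = 0.000417), and the lowest control library stood well above the highest ENL library. CARS2 shares 326 exon bases with ING1 on the opposite strand. ING1 rose from 30.1 to 52.8 CPM, and the sum of both genes came to -0.08 on the log2 scale (edgeR adjusted p = 0.516). Reads in the shared exons were not counted apart.

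Smaller falls were called for 4 further mitochondrial genes. AARS2 (chromosome 6, 44299654 to 44313326, minus strand), for alanine, was at 31.2, 30.3 and 31.0 CPM in control and 19.2, 21.7 and 21.4 CPM in ENL, a log2 fold change of -0.57 ± 0.09 (edgeR adjusted p = 0.00368). NARS2 (chromosome 11, 78435961 to 78574874, minus strand), for asparagine, was at 25.6, 23.7 and 25.4 CPM in control and 17.8, 17.5 and 19.5 CPM in ENL (-0.45 ± 0.10, edgeR adjusted p = 0.0118). Neither gene's groups overlapped, but the call of NARS2 was lost without control library 3 (adjusted p = 0.0513). TARS2 (chromosome 1, 150487364 to 150507609, plus strand), for threonine, was at 43.9, 45.3 and 41.2 CPM in control and 31, 37.4 and 31.5 CPM in ENL, a log2 fold change of -0.38 ± 0.11 (edgeR adjusted p = 0.0268). Its groups were apart by less than in AARS2, and it lost its call without control library 1, 2 or 3 or ENL library 1 or 3 (adjusted p = 0.0775, 0.0907, 0.057, 0.0856 and 0.0582). IARS2 (chromosome 1, 220094102 to 220148041, plus strand), for isoleucine, was at 112, 104 and 108 CPM in control and 86.0, 85.6 and 91.1 CPM in ENL, a log2 fold change of -0.30 ± 0.07 (edgeR adjusted p = 0.0156). Its ENL libraries were all below control, and its call was lost without control library 1 or 3 or ENL library 1 (0.0642, 0.0617 and 0.0565).

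The exception was WARS2 (chromosome 1, 119031216 to 119140671, minus strand), the mitochondrial tryptophanyl enzyme gene, at 14.25, 14.87 and 14.14 CPM in control and 24.3, 22.4 and 20.9 CPM in ENL. All ENL libraries were above all control libraries, and WARS2 rose by 0.64 ± 0.11 (edgeR adjusted p = 0.00371). PARS2, MARS2, CARS2, AARS2 and WARS2 kept their calls in all 17 alternative settings, which did not include summing with overlapping genes.

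Leucyl-tRNA synthetase 2, LARS2 (chromosome 3, 45388506 to 45549421, plus strand), was the gene for which a single library weighed most. It was at 17.9, 27.3 and 18.2 CPM in control and 6.34, 7.77 and 16.2 CPM in ENL libraries 1, 2 and 3. The groups did not overlap, but ENL library 3 was much nearer to control than the other ENL libraries. Its log2 fold change was -1.06 ± 0.39 and did not pass (edgeR adjusted p = 0.0766), whereas without ENL library 3 it was -1.57 (adjusted p = 0.00475), and DESeq2's Wald test called it with all libraries (0.00805). HARS2 was likewise uneven, at 46.4, 49.8 and 51.3 CPM in control and 48.8, 33.6 and 33.8 CPM in ENL (-0.35 ± 0.16, edgeR adjusted p = 0.131). Without ENL library 1 it was called lower at -0.54 (adjusted p = 0.0122). The other mitochondrial enzymes that did not pass, EARS2, FARS2, RARS2, SARS2, VARS2 and YARS2, had log2 fold changes from -0.22 to -0.03. VARS2 shares 1858 exon bases with GTF2H4 and HARS2 152 with ZMAT2 (87.2 CPM in control), both on the same strand. SARS2 shares 1492 on the same strand with the readthrough gene AC011455.2, itself at 0.0117 CPM in control and 0 in ENL. On the opposite strand SARS2 (10.6 CPM in control) shares 349 with MRPS12 (82.3 CPM) and EARS2 (16 CPM) 370 with UBFD1 (26 CPM). The single values of VARS2, HARS2, SARS2 and EARS2 are therefore uncertain.

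All 14 called synthetase genes had groups that did not overlap, as had EPRS1 and LARS2, 16 of 35 where 54% of all tested genes did. The 3 ENL libraries lay wholly above control for 5 of 19 cytosolic and 1 of 16 mitochondrial genes, where 26.4% of all tested genes did. They lay wholly below for 2 of 19 and 8 of 16, where 27.6% of all tested genes did.

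Within a library the cytosolic and mitochondrial enzymes of an amino acid can be compared as a ratio, which library scaling does not touch. Over 17 such ratios of CPM (13 pairs with 1 gene per compartment, FARSA and FARSB each against FARS2, and EPRS1 against EARS2 and PARS2) the log2 ratio was higher in ENL for 14, with a median difference of 0.38. All ENL libraries were above all control libraries for 11 ratios and below for 1, WARS1 to WARS2. An exact permutation test of 3 against 3 libraries has 20 assignments and cannot go below p = 0.1, which all 12 of these ratios reached (exact permutation, two-sided; adjusted p = 0.142 over the 17), so none could pass 0.05. The 17 ratios share libraries, and EPRS1 and FARS2 each enter 2 of them. No ratios of other genes were computed, so the count of 11 has no share beside it. Among single genes 54% of all tested had groups that did not overlap. The ratios with CARS2, MARS1, SARS2 and EARS2 also carry the uncertainty of the shared exons described above.

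The largest differences of these ratios were those of EPRS1 to PARS2, AARS1 to AARS2 and LARS1 to LARS2. AARS1 to AARS2 stood at 3.15, 3.19 and 3.27 on the log2 scale in control libraries 1, 2 and 3 and at 4.52, 4.44 and 4.46 in ENL, a difference of 1.27, to which both genes contributed since one rose and the other fell. EPRS1 to PARS2 stood at 4.72, 4.51 and 4.53 in control and 6.12, 5.73 and 5.94 in ENL (difference 1.34), and LARS1 to LARS2 at 4.06, 3.44 and 3.98 in control and 5.68, 5.16 and 4.32 in ENL (difference 1.22). EPRS1 and LARS1 themselves had log2 fold changes of 0.15 and 0.07. WARS1 to WARS2 went the other way, from 2.86, 2.84 and 3.04 to 2.11, 2.16 and 2.55 (difference -0.64). RARS1 to RARS2, VARS1 to VARS2, HARS1 to HARS2 and both subunit ratios for phenylalanine overlapped between the groups, with differences from -0.12 to 0.22.

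**Figure D4:**
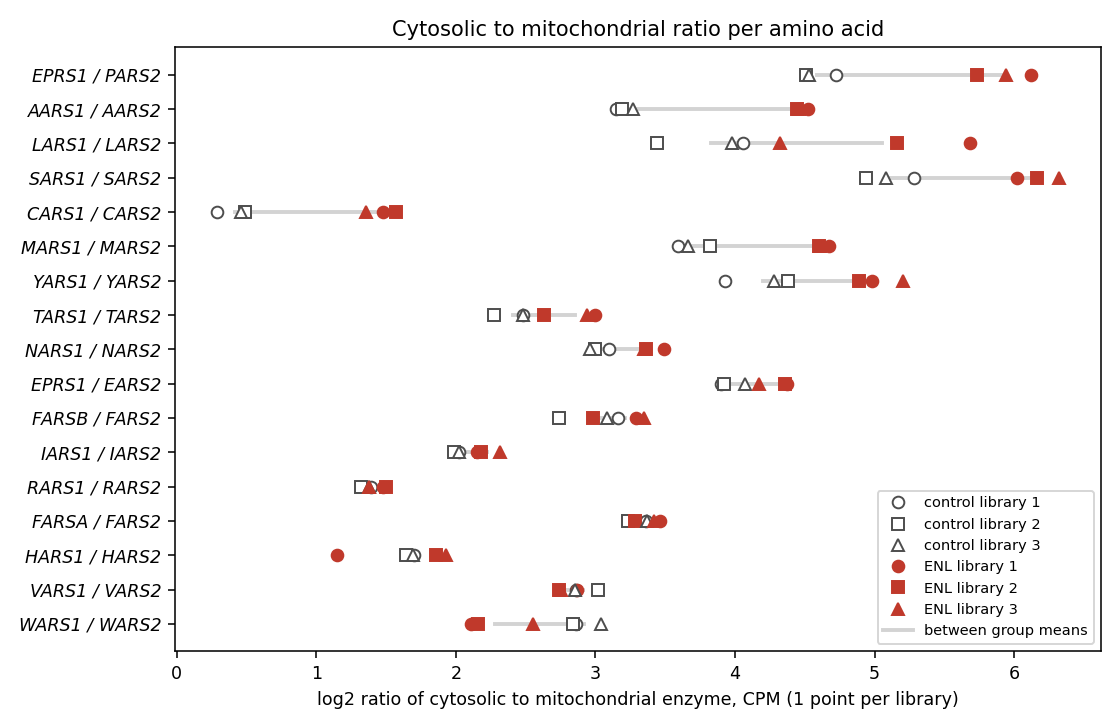
Log2 ratio of the CPM of the cytosolic to that of the mitochondrial enzyme gene for 17 pairings, 1 point per library (open control, filled ENL), ordered by the difference between group means (grey line). In 11 pairings all ENL points lie to the right of all control points, in WARS1 / WARS2 they lie to the left, and in 5 the groups overlap. Ratios of other genes were not computed for comparison.

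Genes that act around the synthetases were counted from lists chosen by function. Of 25 genes of the amino acid response 14 rose and 3 fell (56% and 12%, beside 20% and 18.4% of all tested genes), with a median of 0.53. ATF4 itself was at 545, 606 and 596 CPM in control and 1376, 1484 and 1260 CPM in ENL, and rose by 1.24 ± 0.09 (edgeR adjusted p = 0.000178). The pro-apoptotic factor gene DDIT3 rose by 2.22 ± 0.23 and ASNS, which makes asparagine, by 0.53 ± 0.10 (edgeR adjusted p = 0.000929 and 0.00698). STC2, TRIB3 and NUPR1 rose by 1.74, 1.75 and 2.88, while the amino acid synthesis genes PSPH and ALDH18A1 had log2 fold changes of -1.03 and -0.69 and CHAC1, which degrades glutathione, one of -1.11. All 3 passed the threshold. The call of ASNS was lost under library totals (adjusted p = 0.0505).

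Of 10 amino acid transporter genes 3 rose and 2 fell, 30% and 20%, close to the 20% and 18.4% of all tested genes. SLC7A5 and SLC3A2, the subunits of the transporter for large neutral amino acids, rose by 1.01 ± 0.07 and 1.23 ± 0.13 (edgeR adjusted p = 0.000111 and 0.000697). SLC38A1 and SLC38A2, carriers of glutamine and other neutral amino acids, had log2 fold changes of -0.87 ± 0.12 and -0.50 ± 0.12 (edgeR adjusted p = 0.00189 and 0.0151). SLC38A2 lost its call without control library 1 (0.0571) or ENL library 1 (0.0505). The low-abundance SLC1A4 (0.54 ± 0.17, edgeR adjusted p = 0.042) lost it without control library 1, 2 or 3 or ENL library 1 or 2 (0.121, 0.0657, 0.107, 0.103 and 0.0834).

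The eIF2 kinases slow translation when amino acids or protein folding fail. Of 9 genes for these kinases and their control 3 rose and 1 fell, 33.3% and 11.1% beside 20% and 18.4% of all tested genes. PPP1R15A, the phosphatase subunit that undoes the action of the kinases on eIF2, rose by 1.72 ± 0.09 (edgeR adjusted p = 4.26e-05). EIF2AK4, the kinase that senses uncharged tRNA, had a log2 fold change of -0.17 ± 0.11 (edgeR adjusted p = 0.248), and its activator GCN1 one of -0.51 ± 0.11 (adjusted p = 0.0107). EIF2AK1 and EIF2AK3 were called higher at 0.27 and 0.50 (edgeR adjusted p = 0.0269 and 0.0319). Under upper-quartile scaling their adjusted p was 0.0989 and 0.0536, and under library totals 0.526 (EIF2AK1 at 0.06) and 0.195 (EIF2AK3 at 0.30). Both also lost the call without control library 1, 2 or 3 or ENL library 1, with adjusted p from 0.0513 to 0.107 for EIF2AK1, also without ENL library 2 (0.0543), and from 0.065 to 0.0964 for EIF2AK3. Without any of control libraries 1, 2 or 3 or ENL library 1 the count of higher genes was then 1.

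Mitochondrial charging and translation factors were the list nearest to the mitochondrial synthetases in function. Of 15 tested genes 2 rose and 4 fell, 13.3% and 26.7% beside 20% and 18.4% of all tested genes, and the median was -0.22. Under library totals 0 were higher and 9 lower, where 1804 of all 14086 tested genes were higher and 3996 lower. The elongation factor gene GFM1 had a log2 fold change of -0.65 ± 0.12, the ribosome-associated PTCD3 one of -0.32 ± 0.07 and the release factor MTRF1L one of -0.37 ± 0.11 (edgeR adjusted p = 0.00657, 0.0113 and 0.034). QRSL1, a subunit of the amidotransferase that makes glutaminyl-tRNA after EARS2 has charged glutamate, was called higher at 0.35 ± 0.09, and the initiation factor MTIF3 at 0.47 ± 0.12 (edgeR adjusted p = 0.0237 and 0.0214). These counts were fragile: 0 genes were higher without control library 2 or 3 or ENL library 1 or 2, 1 was higher without control library 1, and 2 were lower without control library 1, 2 or 3 or ENL library 2. MTRF1L was among those lost (adjusted p from 0.0664 to 0.115 without control library 1, 2 or 3 or ENL library 1 or 2).

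**Figure D5:**
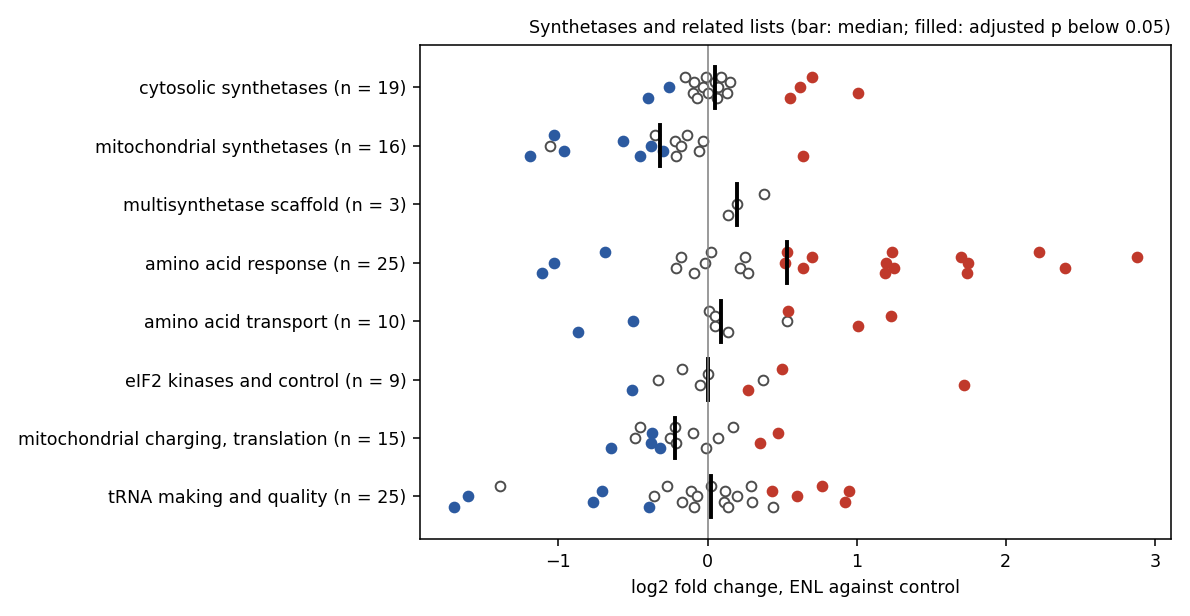
Log2 fold change of ENL against control for the genes of each list, with filled points past an adjusted p of 0.05 and a black bar at the list median. The amino acid response has a median of 0.53, the cytosolic synthetases 0.05 and the mitochondrial synthetases -0.32.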

How the data were processed

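RNA sequencing of 6 BT549 samples was analysed, 3 control and 3 ENL, grouped by title. The labels' protocols ask for a minimum RNA amount and integrity before building mRNA libraries. Named in the submitters' processing notes, without roles or parameters, are hg38, STAR, StringTie, FastQC and DESeq2. The authors deposited 1 table with an estimated count per gene symbol, whole numbers in which 70.8% to 73.1% of low values lay at a multiple of 4 or 1 above. This pattern was read as 1 fragment being worth about 4 units, which was not checked against the reads. Low values would then carry more counting error than their size shows.

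The members, gene lists and rules for named genes were chosen with earlier results of these data known. After filterByExpr (minimum count 10) and TMM scaling, all genes entered 1 quasi-likelihood fit in edgeR (F test, two-sided, robust, group only) with Benjamini-Hochberg adjustment, threshold 0.05. Standard errors are the fold change divided by the root of the F statistic. Given with the value in every library were all called members, the 6 largest absolute changes per compartment, and WARS1, GARS1, KARS1 and EPRS1. HARS2 was added after its values were seen. For other lists up to 3 genes per direction were named, by smallest adjusted p, beside fixed ones, and some are not reported here. Positions, lengths and exon overlaps came from GENCODE 29 (GRCh38), matched for 99.4% of symbols. Promoters came from RefSeq, and no protein sequence was used. Alternatives were other scalings, filters and tests (DESeq2's Wald test, limma-voom, glmTreat at 1.2-fold), counts divided by 4, a length and GC correction, the replicate number as a block and each library left out. Scripts were tested on simulated data. Chi-square per degree of freedom showed that no 2 libraries agreed within sampling noise. R 4.3.3, edgeR 4.0.16, limma 3.58.1, DESeq2 1.42.0 and scipy 1.17.1 were used.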

Additional observations from a re-analysis of the deposited data

How the results depend on the processing

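Of 595 recomputed fold changes of the 35 genes under 17 other settings chosen at the start, 531 kept direction and side of the threshold, 23 lost a call, 13 gained one and 28 changed sign, all 28 of genes that had not been called. The depth of the table limits the lowest genes, such as PARS2, more than the rest. Library totals gave 1804 higher and 3996 lower genes, 4 cytosolic and 12 mitochondrial enzymes lower, and medians of -0.15 and -0.53. Under it CARS1, EPRS1, KARS1, LARS1, RARS1, TARS1 and WARS1 came to -0.12, -0.06, -0.08, -0.14, -0.15, -0.15 and -0.20, and AIMP2 and EEF1E1 to -0.07 and -0.01. Upper-quartile scaling gave medians of -0.03 and -0.41 and put LARS1, RARS1, TARS1 and WARS1 at -0.02, -0.02, -0.03 and -0.08. A filter of 10 CPM in 3 libraries gave medians of 0.02 and -0.36 and WARS1 at -0.03. GlmTreat against 1.2-fold called 1713 genes lower, 0 cytosolic and 4 mitochondrial enzymes. DESeq2's Wald test and the fit without a filter on low counts each called 1 cytosolic enzyme lower, where 2877 and 2456 of all tested genes were lower. WARS1 was -0.01 with counts divided by 4 and with the length and GC correction, and FARSB 0.01 with that correction. Sums over the whole counts of overlapping genes are values of the sums and not of the synthetase alone. They were -0.01 for WARS1 with WDR25, 1.22 for MARS1 with DDIT3 and ARHGAP9, and 0.11 for VARS2 with GTF2H4.

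Leaving out each library in turn gave 0 to 2 cytosolic and 4 to 7 mitochondrial enzymes lower and medians of 0.01 to 0.08 and -0.33 to -0.30. Over all tested genes 1743 to 2877 were then lower, against 2585 with all libraries. Sign changes there were those of FARSB (-0.05 to 0.02), QARS1 (-0.10 to 0.03), WARS1 (-0.07 to 0.06), RARS2 (-0.05 to 0.02), SARS2 (-0.17 to 0.07) and the ratio of HARS1 to HARS2 (-0.18 to 0.22). The cause of these shifts was not tested. Whether the replicate numbers pair the libraries is not settled. Same-numbered residuals correlated at 0.0097, 0.228 and 0.125, and different-numbered ones at -0.252 to 0.121. With the replicate number as a block 1 cytosolic and 7 mitochondrial enzymes were lower, 2631 genes were higher and 2310 lower, and WARS1 came to -0.00.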

Other observations

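Genes for making and checking tRNA, the substrate of these enzymes, moved in both directions: of 25 tested 5 rose and 5 fell, beside 20% and 18.4% of all genes tested, with a median log2 fold change of 0.02. Within RNA polymerase III, which transcribes tRNA genes, the subunit gene POLR3D rose by 0.95 ± 0.06 and the initiation factor gene BRF1 by 0.77 ± 0.08 (edgeR adjusted p = 0.000117 and 0.000778). The subunit gene POLR3B fell from a mean of 11.1 to 3.62 CPM (edgeR adjusted p = 0.000817). TSEN54, a subunit gene of the tRNA splicing endonuclease, rose by 0.92 ± 0.09 (edgeR adjusted p = 0.000491).

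Several synthetase genes start close to a neighbour on the opposite strand, some of them overlapping it, and the partners did not always move alike. RARS2 and ORC3 start 64 bases apart, and ORC3 rose by 0.71 (edgeR adjusted p = 0.00121) beside -0.03 for RARS2. CARS2 and ING1 start 867 bases apart by the outermost GENCODE start of CARS2 (110713603), while its RefSeq windows lie at 110706466 to 110706765 and 110706067 to 110706366. The 2 genes were called in opposite directions (-0.96 and 0.81), with the shared exons described above. TERF2IP, 857 bases from KARS1, rose by 0.91 (edgeR adjusted p = 0.000554) beside 0.13 for KARS1. DDX19B, 120 bases from AARS1, was called higher at 0.36 (edgeR adjusted p = 0.0424) beside 0.70, a call lost without control library 1 or 3 or ENL library 1 or 2 (0.126, 0.112, 0.0914 and 0.108), under library totals (0.15, adjusted p = 0.278), upper-quartile scaling (0.103), the filter of 10 CPM (0.061) and glmTreat (0.205). HARS1 and HARS2 start 436 bases apart, share 437 exon bases and had -0.40 and -0.35. These neighbours were looked up after the fold changes were seen.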
